A study of Zea mays with 12 samples.

Results

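The comparison described here sets maize endosperm carrying the nkd2-Ds allele against wild-type (WT) endosperm, 16 days after pollination. It uses 8 of the 12 libraries of the series, 4 nkd2-Ds and 4 WT, chosen by their genotype label, and it covers every gene whose mean reached 1 RPKM in either group, 25726 genes in all. RPKM is the number of reads per kilobase of a gene, scaled by a size factor of its library. Both groups are of the W22 inbred background, and the plants were grown in the field and self-pollinated. The tissue was the whole endosperm, so RNA of its inner starchy cells and of its surface layers was pooled within a library. The labels name no controls beyond WT and no second allele of nkd2, and they do not say whether the 4 libraries of a group came from separate plants or ears. The series calls them biological replicates, and p-values measure only the spread between these libraries. The 4 remaining libraries, labelled nkd1-Ds, enter only where a direct difference from them is stated.

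The naked endosperm pair, nkd1 and nkd2, encodes INDETERMINATE domain proteins, which are transcription factors with zinc fingers. In maize they are known for their part in forming the aleurone, the outermost endosperm layer, which stores oil bodies and globulin and can hold anthocyanin pigment, and in the later filling of the starchy endosperm. Starchy cells store starch and the prolamin proteins called zeins. The Ds element is a transposon of maize, and an insertion of it can disrupt a gene.

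The targeted transcript was low in every nkd2-Ds library. nkd2 (GRMZM5G884137) stood at 18.9, 19.1, 20.6 and 19.4 RPKM in WT replicates 1 to 4 and at 1.08, 1.25, 1.27 and 0.975 RPKM in the nkd2-Ds replicates. It fell by 3.26 ± 0.0730 on the log2(RPKM + 1) scale (difference ± SE from limma, Benjamini-Hochberg adjusted p = 1.70e-09). The partner gene nkd1 (GRMZM2G129261) stood at 45.3, 52.1, 52.0 and 47.3 RPKM in WT and at 34.7, 33.3, 37.1 and 35.4 RPKM in nkd2-Ds. Its groups did not overlap, and it fell by 0.47 ± 0.0643 (adjusted p = 0.000619), a call that did not hold with total-reads scaling (adjusted p = 0.152). The list of INDETERMINATE domain genes held only this pair, so both of its 2 tested members were lower.

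Depth, as reads assigned to genes, was 35.3 to 48.0 megareads in the 8 libraries. On the first principal component, with 63.2% of the variance, WT lay at -40.1 to -36.2 and nkd2-Ds at 34.9 to 40.9. The second, with 12.4%, spread the nkd2-Ds libraries from -32.1 in replicate 1 to 27.8 in replicate 4. The third, with 6.19%, placed replicates 1 and 2 of both groups below 0 and replicates 3 and 4 of both groups above 0, although the labels name no batch. The root mean square difference between 2 libraries was 0.247 to 0.290 on the log2 scale within WT, 0.274 to 0.394 within nkd2-Ds and 0.509 to 0.586 between the groups. Of 10 tested markers of the basal transfer layer and the embryo-surrounding region none was called, and the same held for 3 tested markers of pericarp and green tissue. The transfer-layer markers varied from library to library, as given with the replicates.

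A gene was called where its limma adjusted p was under 0.05 over all genes tested. By this rule 6076 genes (23.6%) differed, 2770 of them higher in nkd2-Ds (10.8%) and 3306 lower (12.9%). Most differences were small: the median absolute log2 difference of called genes was 0.48, and 3703 of them (60.9%) changed by less than 1.5-fold. Changes of at least 2-fold numbered 1010 among called genes (3.93%), with 585 upward (2.27%) and 425 downward (1.65%). Those of at least 4-fold numbered 161 upward and 101 downward. The scale understates the change of low genes. Genes with a mean under 1 RPKM in 1 group passed the filter only through the other, so part of their difference was built in. In 6905 tested genes (26.8%) the 4 nkd2-Ds and 4 WT values did not overlap, with nkd2-Ds above in 3070 (11.9%) and below in 3835 (14.9%), and 988 of the 1010 were among them. Calls were more frequent among abundant genes, 49.3% of the 582 genes at 100 RPKM or more against 16.3% of the 4449 genes under 2 RPKM. The split into higher and lower calls rested on the scaling. Total-reads scaling gave 3663 calls, of which 69.5% were higher (45.6% with the authors' scaling), and shifted the median difference over all genes from -0.01 to 0.13. All differences below are on the authors' scale unless stated. List counts below are to be read against the 10.8% called higher and 12.9% called lower over all genes. Where a call is said to be lost below, losses with the replicate block are left out and are given at the end.

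**Figure D1:**
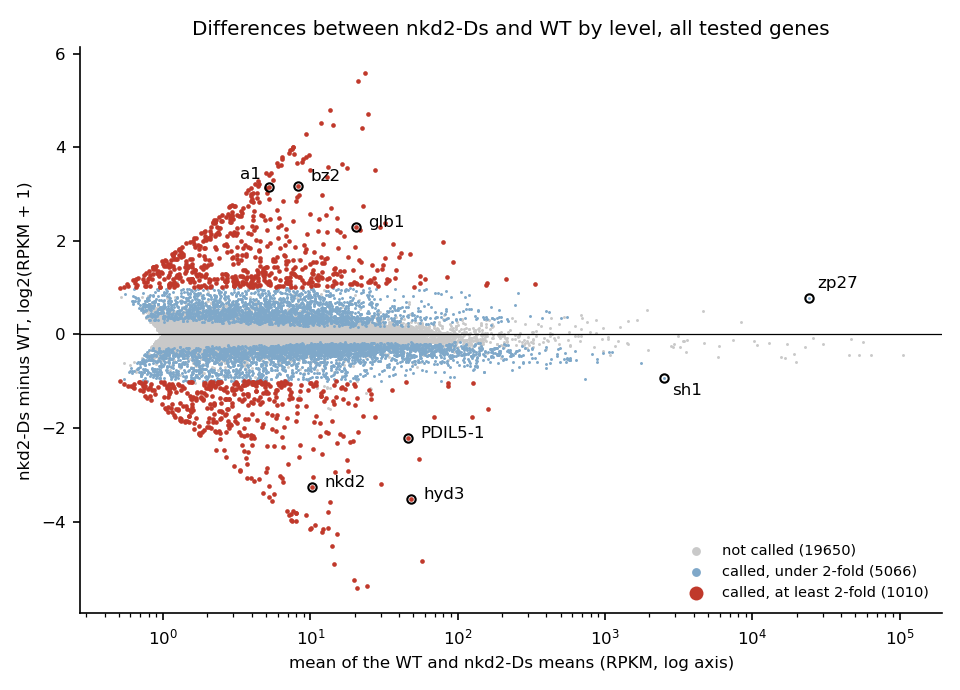
Each point is a gene, with its level on the x axis (mean of the group means, RPKM, log axis) and the nkd2-Ds minus WT difference in log2(RPKM + 1) on the y axis. The 1010 genes called with at least 2-fold change, in red, lie on both sides of 0, and circled genes are named.

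The anthocyanin pathway gave the largest rises among named genes. Of 12 tested genes of the anthocyanin and flavonoid list 7 rose and 1 fell, with a median difference of 1.22 against -0.01 over all genes tested. Another 3 of the 15 matched genes were under the level filter. Those that rose stood near or below 1 RPKM in WT and passed the filter through their nkd2-Ds values, so a difference was built into passing it, and the count is a description.

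Among the regulators, r1 (GRMZM5G822829), a bHLH activator of the pathway, was at 0.0303, 0.139, 0.0631 and 0.0438 RPKM in WT and at 9.32, 7.88, 10.8 and 3.45 RPKM in nkd2-Ds. All 4 nkd2-Ds libraries lay above all WT libraries, with replicate 4 the lowest of them. r1 rose by 2.96 ± 0.256 (adjusted p = 2.67e-05). The MYB partner c1 (GRMZM2G005066) went from 0.501, 0.420, 0.826 and 0.845 RPKM in WT to 0.972, 1.67, 1.24 and 1.12 RPKM. It rose by 0.45 ± 0.130 (adjusted p = 0.0314). That call was lost without WT replicates 1 or 2 and without nkd2-Ds replicates 2 or 3 (adjusted p 0.0669 to 0.0812). The pathway's WD40 regulator pac1 is carried by 2 gene models, of which GRMZM2G058432 was the 1 lower member (log2 -0.39 ± 0.103, adjusted p = 0.0224) and GRMZM2G058292 did not pass (0.03 ± 0.0924). The lower call was lost without WT replicates 3 or 4 and without nkd2-Ds replicates 3 or 4 (adjusted p 0.0513 to 0.0619), and with total-reads scaling (0.205).

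The enzyme genes follow in pathway order. c2 (GRMZM2G422750), the chalcone synthase gene, was at 0.0511 to 0.146 RPKM in WT and at 2.12, 3.75, 3.16 and 5.44 RPKM in nkd2-Ds, and it rose by 2.0 ± 0.187 (adjusted p = 4.74e-05). chi1 (GRMZM2G155329), named for chalcone isomerase, was at 2.53 ± 0.725 RPKM in WT and 1.95 ± 0.579 in nkd2-Ds (mean ± SD, n = 4) and was not called (limma adjusted p = 0.354). Flavanone 3-hydroxylase is encoded by fht1 (GRMZM2G062396). It had 6 reads in the 4 WT libraries together and 2.81, 4.26, 4.35 and 6.48 RPKM in nkd2-Ds, a rise of 2.37 ± 0.172 (adjusted p = 7.53e-06). The dihydroflavonol reductase gene a1 (GRMZM2G026930) went from 0.167, 0.401, 0.347 and 0.0402 RPKM to 6.07, 10.1, 9.68 and 15.5 RPKM, a rise of 3.14 ± 0.221 (adjusted p = 5.92e-06). Each of these called enzymes was above the WT range in all 4 nkd2-Ds libraries, lowest in replicate 1 and highest in replicate 4.

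2 gene models carry the name a2, that of the anthocyanidin synthase step. GRMZM2G345717 went from 0.0477 to 0.206 RPKM in WT to 2.35, 3.95, 4.15 and 5.53 RPKM in nkd2-Ds and rose by 2.08 ± 0.176 (adjusted p = 2.25e-05). GRMZM6G474234 was at 8.74 ± 0.747 RPKM in WT and 8.31 ± 0.659 in nkd2-Ds (SD, n = 4) and was not called (limma adjusted p = 0.613). bz2 (GRMZM2G016241), a glutathione transferase that carries the pigment toward the vacuole, had the largest difference of the list. It was at 0.881, 0.997, 0.864 and 0.450 RPKM in WT and at 9.60, 15.1, 16.1 and 22.3 RPKM in nkd2-Ds, 19.8-fold higher in the ratio of means, with a log2 rise of 3.18 ± 0.209 (adjusted p = 3.68e-06). BZ1 (GRMZM2G165390), the glucosyltransferase gene, and whp1 (GRMZM2G151227), the other chalcone synthase gene, stayed under the filter. BZ1 was at 0.0614 to 0.177 RPKM in WT and at 0.430 to 0.978 RPKM in nkd2-Ds, and whp1 at 0 to 0.0354 and 0.293 to 0.979 RPKM. MRP4 (GRMZM5G820122), a transporter gene matched to the list by name, was at 14.8 ± 1.91 and 16.4 ± 0.454 RPKM (SD, n = 4). It was not called (limma adjusted p = 0.261). PAL1 (GRMZM2G074604), a phenylalanine ammonia-lyase gene of the defence list, opens the route to flavonoids and rose from 0.612 ± 0.0413 to 1.65 ± 0.283 RPKM (log2 0.71 ± 0.0987, limma adjusted p = 0.000683). It too passed the filter only through its nkd2-Ds values.

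**Figure D2:**
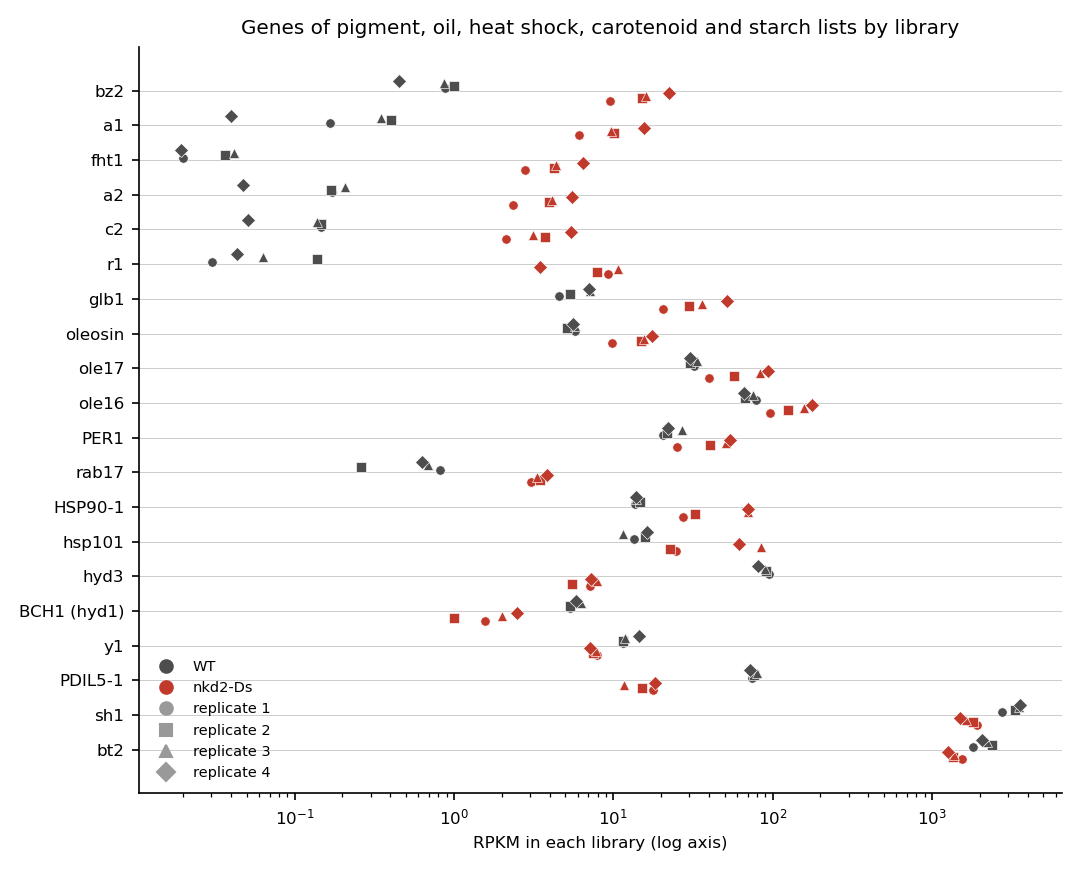
RPKM of 20 named genes (rows) in each library on a log axis, WT in grey and nkd2-Ds in red, with 1 marker shape per replicate. The pigment genes from bz2 to c2 are lowest in nkd2-Ds replicate 1 (circle) and highest in replicate 4 (diamond), whereas rab17 is close to level across the 4 nkd2-Ds libraries.

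Some genes of the aleurone and of oil storage rose as well. Of 10 tested aleurone genes 4 rose and 2 fell, the 2 being nkd1 and nkd2 themselves, with a median of 0.12. Of 5 tested genes of the oleosin, globulin and oil synthesis list 3 rose and none fell, with a median of 1.02, and these lists share glb1 and ole17. glb1 (GRMZM2G067919), a globulin storage protein gene of aleurone and embryo, went from 4.57, 5.33, 7.18 and 7.01 RPKM to 20.6, 30.1, 36.1 and 52.1 RPKM. The groups lay far apart at 5.76-fold in the ratio of means, and glb1 rose by 2.29 ± 0.241 (adjusted p = 0.000111).

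The oleosins are the coat proteins of oil bodies. ole17 (GRMZM2G480954) went from 32.1, 30.5, 33.7 and 30.3 RPKM in WT to 39.7, 57.2, 83.6 and 93.9 RPKM in nkd2-Ds (log2 1.02 ± 0.223, adjusted p = 0.00894). ole16 (GRMZM2G337229) went from 78.8, 67.3, 75.6 and 65.8 RPKM to 96.9, 126, 157 and 178 RPKM (0.91 ± 0.164, adjusted p = 0.00310). Another oleosin gene (GRMZM2G333069) rose by 1.21 ± 0.143 (adjusted p = 0.000250). In all of them replicate 1 was the lowest nkd2-Ds library, yet above every WT library. PER1 (GRMZM2G129761), a peroxiredoxin gene of dormant aleurone and embryo, rose by 0.82 ± 0.209 (adjusted p = 0.0178), although replicate 1 at 25.1 RPKM lay below WT replicate 3 at 27.2 RPKM.

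Regulators of aleurone fate did not pass. The receptor kinase gene cr4 (GRMZM2G051637) differed by -0.10 ± 0.0802, the calpain gene dek1 (GRMZM2G321753) by 0.21 ± 0.0919 and Sal1 (GRMZM2G117935), whose product acts in vesicle sorting, by 0.03 ± 0.0627. vp1 (GRMZM2G133398), the B3 activator of maturation genes, was at 1.74, 1.31, 1.81 and 1.41 RPKM in WT and at 0.907, 1.69, 1.66 and 2.30 RPKM in nkd2-Ds, a difference of 0.02 ± 0.156. Its nkd2-Ds values enclosed the WT values, with replicate 1 again the lowest and replicate 4 the highest. The desaturase genes FAD2 (GRMZM2G056252) and fad2 (GRMZM2G064701) differed by 0.23 ± 0.0802 and 0.19 ± 0.0707 and did not pass either.

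The abscisic acid and desiccation list had 2 of 7 tested members higher and 2 lower, with a median of 0.23, or 0.35 under quantile and 0.42 under total-reads scaling. rab17 (GRMZM2G079440), a dehydrin gene, went from 0.821, 0.263, 0.684 and 0.633 RPKM to 3.07, 3.49, 3.34 and 3.84 RPKM and rose by 1.48 ± 0.122 (adjusted p = 1.84e-05). rab17 passed the level filter only through its nkd2-Ds values, so a rise was built into its being tested. Its spread over the nkd2-Ds libraries was among the 5 smallest of named genes changed at least 2-fold. dhn2 (GRMZM2G373522), another dehydrin gene, rose by 0.70 ± 0.155 (adjusted p = 0.00948). aba1 (GRMZM2G136910), also named asr1, fell from 3.19 ± 0.394 to 0.726 ± 0.256 RPKM (log2 -1.29 ± 0.121, limma adjusted p = 5.08e-05; SD, n = 4). SnRK2.5 (GRMZM2G110908), a protein kinase gene, fell by 0.40 ± 0.0596 (adjusted p = 0.00103), a call lost with total-reads scaling (0.217). Of 3 tested genes of the gibberellin and amylase list none was called. These were d8 and d9, which code for DELLA repressors, and an1, of gibberellin synthesis, at 0.10, 0.25 and 0.07. Of 5 tested embryo markers 1 fell, the auxin-binding protein gene abp1 (GRMZM2G116204), by 0.37 ± 0.0894 (adjusted p = 0.0139), a call lost with total-reads scaling (0.242).

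Carotenoid hydroxylation showed the largest named fall. hyd3 (GRMZM2G152135), a beta-carotene hydroxylase gene, was at 94.4, 91.0, 90.2 and 81.4 RPKM in WT and at 7.11, 5.52, 7.94 and 7.30 RPKM in nkd2-Ds. The 4 libraries of each group lay close together, 12.8-fold apart in the ratio of means, and hyd3 fell by 3.51 ± 0.0963 (adjusted p = 5.71e-09). A related hydroxylase gene outside the list, BCH1 or hyd1 (GRMZM2G164318), went from 5.39, 5.38, 6.30 and 5.85 RPKM to 1.57, 0.999, 2.0 and 2.49 RPKM and fell by 1.31 ± 0.154 (adjusted p = 0.000239). Of the 6 tested carotenoid genes 3 fell and none rose, with a median of -0.23. y1 (GRMZM2G300348), the phytoene synthase gene, fell by 0.64 ± 0.0815 (adjusted p = 0.000415). pds1, the phytoene desaturase gene, is carried by 2 models: GRMZM5G815358 fell by 0.36 ± 0.0986 (adjusted p = 0.0249) and GRMZM2G410515 was at -0.11 ± 0.0668. The pds1 call was lost without WT replicates 1, 2 or 3 and without nkd2-Ds replicates 3 or 4 (adjusted p 0.0568 to 0.0666), and with total-reads scaling (0.303).

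Starch synthesis leaned lower on the authors' scale. Of 16 tested genes 7 fell and 1 rose, with a median of -0.23. Over all genes tested 12.9% were called lower and 10.8% higher. Much of the list lay at 100 RPKM or more, where 49.3% of all tested genes were called. The count is therefore a description. All 7 falls are in genes that moved by less than 2-fold. Quantile normalization left 4 lower and total-reads scaling 3 lower, with 1 higher in each. Relative to the median of all genes, the list median was -0.22 on the authors' scale, -0.19 with total-reads scaling and -0.05 with quantile normalization, which takes away most of the lean. sh1 (GRMZM2G089713), a sucrose synthase gene, went from 2768, 3346, 3506 and 3577 RPKM to 1930, 1822, 1640 and 1503 RPKM and fell by 0.94 ± 0.128 (adjusted p = 0.000628). bt2 (GRMZM2G068506), the small subunit gene of the endosperm ADP-glucose pyrophosphorylase, went from 1804, 2376, 2230 and 2054 RPKM to 1539, 1353, 1371 and 1272 RPKM and fell by 0.61 ± 0.114 (adjusted p = 0.00399). In both genes all nkd2-Ds libraries lay below all WT libraries. agpsl1 (GRMZM2G163437), another gene named for an ADP-glucose pyrophosphorylase subunit, fell by 0.56 ± 0.0826 (adjusted p = 0.000972).

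The remaining calls of the starch list were smaller or less firm. bt1 (GRMZM2G144081), the plastid ADP-glucose transporter gene, ae1 (GRMZM2G032628), a branching enzyme gene, and pho1 (GRMZM2G074158), a starch phosphorylase gene, fell by 0.52, 0.38 and 0.35. Their adjusted p values were 0.0115, 0.00871 and 0.00319, against 0.197, 0.254 and 0.346 with total-reads scaling. Quantile normalization also ended the calls of bt1 (0.0537) and ae1 (0.0522). sus1 (GRMZM2G152908) fell by 0.65 ± 0.189 (adjusted p = 0.0329), and this call was lost without WT replicates 1, 3 or 4 and without nkd2-Ds replicate 2 (adjusted p 0.0555 to 0.0850), and under quantile (0.101) or total-reads scaling (0.211). sus2 (GRMZM2G318780), the other sucrose synthase gene, was the member that rose, from 29.8, 26.6, 28.6 and 24.3 RPKM to 36.6, 45.6, 50.8 and 52.1 RPKM (log2 0.73 ± 0.111, adjusted p = 0.00119). wx1 (GRMZM2G024993), the granule-bound starch synthase gene, was at 3189 ± 108 RPKM in WT and 3095 ± 154 in nkd2-Ds (SD, n = 4) and was not called (limma adjusted p = 0.801). sh2 (GRMZM2G429899), the large subunit gene, differed by -0.24 ± 0.107 (adjusted p = 0.138) and passed with limma voom (0.0477).

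The zeins, the most abundant transcripts, were spread widely over the nkd2-Ds libraries, and few passed the test. Of 28 tested zein genes 1 rose and 2 fell, with a median of -0.21, or -0.05 with quantile normalization. As a share of all reads, zeins took 41.8%, 41.4%, 47.7% and 46.6% in WT and 48.7%, 42.7%, 37.9% and 35.9% in nkd2-Ds. Replicate 1 of nkd2-Ds had the highest share of the 8 libraries and replicate 4 the lowest, so the groups overlapped. The means were 44.4% ± 3.24 and 41.3% ± 5.71 (SD, n = 4 each), and a two-sided exact permutation test over the libraries gave p = 0.4, where 0.0286 is the smallest p it allows. Alpha zein copies are nearly identical and can share reads, so values of single copies are uncertain.

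Among the single zein genes, z1A1_3 (GRMZM2G059620), the alpha zein with the highest level in WT, was at 104168, 105854, 139175 and 128436 RPKM in WT and at 132846, 96109, 71819 and 62837 RPKM in nkd2-Ds. It was not called (log2 -0.44 ± 0.449, adjusted p = 0.523), nor were the other 9 named genes with the highest WT levels, all zeins. zp27 (GRMZM2G138727), a gamma zein gene, went from 17470, 17708, 17788 and 18559 RPKM to 39929, 28592, 28313 and 26925 RPKM, all nkd2-Ds libraries above all WT libraries. It rose by 0.77 ± 0.237 (adjusted p = 0.0401), a call lost without any of the WT replicates and without nkd2-Ds replicates 2 or 3 (adjusted p 0.0718 to 0.113), and also with no level filter (0.269) or with the term for replicates 1 and 2 against 3 and 4 (0.0661), which was chosen after seeing the data. dzs18 (GRMZM2G100018), a delta zein gene, fell by 0.91 ± 0.258 (adjusted p = 0.0291) and z1A1_8 (GRMZM2G018193) by 0.69 ± 0.212 (adjusted p = 0.0410), with overlapping groups in both. The dzs18 call was lost without WT replicates 2, 3 or 4 and without nkd2-Ds replicates 3 or 4 (0.0520 to 0.0816). That of z1A1_8 was lost without WT replicates 2, 3 or 4 and without nkd2-Ds replicates 2, 3 or 4 (0.0546 to 0.106), with no level filter (0.0524), with quantile normalization (0.0517) and with the replicate term (0.0525).

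Zein regulators moved in both directions. Of 10 tested endosperm transcription factor genes 1 rose and 3 fell, nkd1 and nkd2 among the latter, with a median of -0.14. pbf1 (GRMZM2G146283), whose product binds the prolamin box of zein promoters, went from 96.0, 97.9, 111 and 108 RPKM to 81.1, 75.7, 67.9 and 67.4 RPKM and fell by 0.50 ± 0.0786 (adjusted p = 0.00153). A second model of that name (GRMZM2G146267) was at 0.16 ± 0.0633 and did not pass. o2 (GRMZM2G015534), the bZIP gene Opaque2, went from 277, 272, 255 and 254 RPKM to 309, 297, 431 and 377 RPKM and rose by 0.40 ± 0.114 (adjusted p = 0.0291). That call was lost without WT replicates 2, 3 or 4 and without nkd2-Ds replicates 3 or 4 (0.0553 to 0.0759), and with total-reads scaling (0.0542). Of 6 tested Opaque2 target genes 1 rose and none fell, with a median of 0.14. lkrsdh1 (GRMZM2G181362), the lysine-degrading enzyme gene, went from 221, 202, 162 and 186 RPKM to 292, 352, 302 and 241 RPKM, a rise of 0.62 ± 0.125 (adjusted p = 0.00597). rip1 (GRMZM2G063536), the b-32 protein gene, differed by 0.36 ± 0.124 (adjusted p = 0.0648). It passed with quantile normalization (0.00788), total-reads scaling (0.0107) and limma voom (0.0456), and without WT replicate 4 (0.0220).

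Of 10 tested heat shock genes 5 rose, 1 fell and 4 did not pass, with a median of 0.81, and the rises were largest in replicates 3 and 4. HSP90-1 (GRMZM2G024668), a cytosolic chaperone gene, was at 13.7, 14.7, 14.0 and 14.0 RPKM in WT and at 27.6, 32.7, 70.3 and 70.1 RPKM in nkd2-Ds (log2 1.64 ± 0.277, adjusted p = 0.00221). hsp101 (GRMZM2G360681), which codes for a disaggregase, was at 13.5, 15.8, 11.6 and 16.3 RPKM in WT and at 24.8, 22.7, 84.2 and 61.4 RPKM in nkd2-Ds (1.48 ± 0.371, adjusted p = 0.0169). In each of the 5 genes that rose, replicates 3 and 4 both lay above replicates 1 and 2. hsp82 (GRMZM5G833699) rose by 1.64 ± 0.362 (adjusted p = 0.00921), with a difference of 0.68 within replicates 1 and 2 of both groups and of 2.61 within replicates 3 and 4.

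Small heat shock proteins gave the same contrast between replicates. hsp22 (GRMZM2G007729) was at 18.7, 18, 9.93 and 11.4 RPKM in WT and at 20.2, 19.9, 79.1 and 68.4 RPKM in nkd2-Ds, so that replicates 1 and 2 stood just above the highest WT library. Its call (1.40 ± 0.448, adjusted p = 0.0476) was lost without any of the WT replicates and without nkd2-Ds replicates 3 or 4 (0.0637 to 0.117), with quantile normalization (0.0507) and with no level filter (0.0608). hsp18c (GRMZM2G034157) rose by 0.88 ± 0.188 (adjusted p = 0.00781). hsp1 (GRMZM5G802801) and hsp18a (GRMZM2G404249) were at 33.2 RPKM or more and at 64.5 RPKM or more in replicates 3 and 4, and near their WT values in replicates 1 and 2, without passing (adjusted p = 0.0707 and 0.101). hsp1 passed with all 12 libraries in the fit (0.0340), with the term for replicates 1 and 2 against 3 and 4 (0.0439), and without nkd2-Ds replicate 1 (0.0215) or 2 (0.0401). hsp18a passed without nkd2-Ds replicate 2 (0.0245). hsp70-4 (GRMZM2G340251) fell by 0.33 ± 0.0885 (adjusted p = 0.0241), lost without WT replicates 2, 3 or 4 and without nkd2-Ds replicates 2 or 4 (0.0504 to 0.0670), and under quantile (0.0697) or total-reads scaling (0.486). ERTC (GRMZM2G051135), outside the list, was at 5.52, 4.89, 15.4 and 12.1 RPKM in nkd2-Ds against 2.76 ± 0.660 RPKM in WT and rose by 1.36 ± 0.313 (limma adjusted p = 0.0111; SD, n = 4).

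Chaperones of the endoplasmic reticulum (ER) changed less. Of 10 tested ER genes 3 rose and 2 fell, with a median of -0.06, or 0.05 with quantile normalization. The binding protein genes bip1 (GRMZM2G114793) and bip2 (GRMZM2G415007) and the calreticulin gene crt2 (GRMZM2G358059) rose by 0.39, 0.38 and 0.38 (adjusted p = 0.0113, 0.00535 and 0.00210). In these 3 genes replicate 4 was the lowest nkd2-Ds library, the reverse of the pigment genes. The 2 that fell are both named PDIL5-1, for a disulfide isomerase, and the RefSeq table joins them in 1 gene. GRMZM2G443655 went from 74.8, 76.3, 80.5 and 72.1 RPKM to 17.9, 15.1, 11.7 and 18.3 RPKM, a fall of 2.22 ± 0.121 (adjusted p = 9.00e-07). GRMZM2G073628 fell by 1.04 ± 0.0836 (adjusted p = 1.63e-05).

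The remaining lists are given with their counts, to be read against the 23.6% called over all genes. Of 11 tested alcohol dehydrogenase and low-oxygen genes 3 fell and none rose. adh2 (GRMZM2G098346), an alcohol dehydrogenase gene, fell from 5.05 ± 0.516 to 2.96 ± 0.638 RPKM (limma adjusted p = 0.00436; SD, n = 4). The enolase genes eno1 (GRMZM2G064302) and eno2 (GRMZM2G048371) fell by 0.42 and 0.31, calls lost with total-reads scaling (adjusted p = 0.334 and 0.548) and with quantile normalization (0.0878 and 0.414). Of 25 tested cell cycle and DNA replication genes 2 rose and 2 fell. pcna1 (GRMZM2G030523), the sliding clamp gene, fell by 0.49 ± 0.109 (adjusted p = 0.00956), lost with total-reads scaling (0.175). cdc2 (GRMZM2G008327), a cyclin-dependent kinase gene, rose by 0.37 ± 0.0928 (adjusted p = 0.0173), lost without WT replicate 4 (0.0505) and with total-reads scaling (0.0547). RBR1 and rbr3, of the retinoblastoma family, differed by 0.16 and -0.33. RBR1 lost its call without any 1 of the 8 libraries (0.0639 to 0.126), with total-reads scaling (0.148) and with all 12 libraries in the fit (0.141). rbr3 lost its call with total-reads scaling (0.384) and without any 1 of 6 libraries, WT replicates 1, 3 and 4 and nkd2-Ds replicates 1, 2 and 3 (0.0604 to 0.0824).

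Of 7 tested polycomb and imprinted genes 1 rose, NRP1 (GRMZM2G062650), by 0.33 (adjusted p = 0.0485). That call was lost without any of the WT replicates and without nkd2-Ds replicates 1, 3 or 4 (0.0565 to 0.117), and with no level filter (0.0588). Of 4 tested transport genes 1 rose, the sucrose transporter gene sut2 (GRMZM2G145107), by 0.23, lost without WT replicates 1, 2 or 3 and without nkd2-Ds replicates 1, 2 or 4 (0.0572 to 0.0714), and with total-reads scaling (0.0548). Of 4 tested defence and seed protection genes PAL1 rose, as given with the pigment genes, and a chitinase gene (GRMZM2G051943) fell by 0.59 ± 0.120 (adjusted p = 0.00616), lost with total-reads scaling (0.0861). For cytosolic ribosomal proteins 0 genes could be matched by name. Over all lists together 59 genes were called, members shared by lists being counted once. The tested total of the lists is not given, so this count cannot be read against the 23.6% and is a description.

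Beyond the lists, plt1 (GRMZM2G101958), named for phospholipid transfer, was among the 12 largest named rises. It went from 52.6, 46.7, 49.6 and 35.4 RPKM to 90.4, 118, 178 and 177 RPKM (log2 1.55 ± 0.213, adjusted p = 0.000667). Among the 12 largest named falls, lrk1 (GRMZM2G064750), named as a receptor-like kinase, went from 2.91, 2.61, 4.6 and 4.21 RPKM to 0.0497, 0.0671, 0.0651 and 0.0453 RPKM (-2.09 ± 0.142, adjusted p = 4.62e-06). HO1 (GRMZM2G043277), named for haem oxygenase, fell from 5.10 ± 1.05 to 0.615 ± 0.241 RPKM (limma adjusted p = 1.40e-05; SD, n = 4). The lipoxygenase gene lox12 (GRMZM2G106748) fell by 1.38, RAB2B (GRMZM2G173878), a small GTPase gene, by 1.20, the pentatricopeptide repeat gene PPR-814a (GRMZM2G124602) by 1.12 and COR413-TM1 (GRMZM2G102605) by 1.07. Each of these had all nkd2-Ds libraries below all WT libraries. HRGP (GRMZM2G168651), named for a hydroxyproline-rich glycoprotein, fell by 1.53 ± 0.418 (adjusted p = 0.0248), with WT values from 6.37 to 26.0 RPKM, and lost its call without WT replicate 4 (0.0616), nkd2-Ds replicate 1 (0.0567) or nkd2-Ds replicate 4 (0.0621).

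Some of the largest differences belonged to genes without a name. 50 tested genes had 0 reads in all WT libraries and 23 had 0 reads in all nkd2-Ds libraries. Such genes pass the filter through 1 group, so their difference is built in. GRMZM2G176355 was at 54.1, 49.6, 42.7 and 43.0 RPKM in nkd2-Ds, at least 172-fold higher when 3 reads in each WT library are taken as the floor. The floor covers counting error only. GRMZM2G506671 was at 36.7 to 46.1 RPKM in WT and had 0 reads in every nkd2-Ds library. Of the 50 genes without reads in WT, the weakest nkd2-Ds library reached at least 0.8 of the strongest difference in 17 and less than 0.5 in 12. GRMZM2G499470 is 1 of the 12, at 46.7, 3.96, 36.3 and 27.1 RPKM. Genes at 0 in every nkd2-Ds library are even by construction.

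Evenness was measured by leaving each nkd2-Ds library out in turn, calling genes with the other 7 libraries, and setting the difference of the left-out library from the WT mean against that of the other 3. For genes called with at least 2-fold change, 99.4%, 99.7%, 99.2% and 99.4% lay on the same side of the WT mean in replicates 1 to 4, and 98.1%, 98.6%, 97.7% and 98.4% lay beyond all 4 WT values. The median ratio of the left-out difference to that of the others was 0.965, 0.981, 1.00 and 0.990. Nearly all large changes were thus shared in direction by each library. Over all called genes, most of them small changes, the ratios were 0.811, 0.914, 0.977 and 1.00, and 95.5%, 98.1%, 98.4% and 98.3% lay on the same side. The same measure for left-out WT libraries gave 0.882, 0.936, 0.978 and 1.01. Replicate 1 of nkd2-Ds was the lowest of the 8, and with total-reads scaling its ratio was 0.385.

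**Figure D3:**
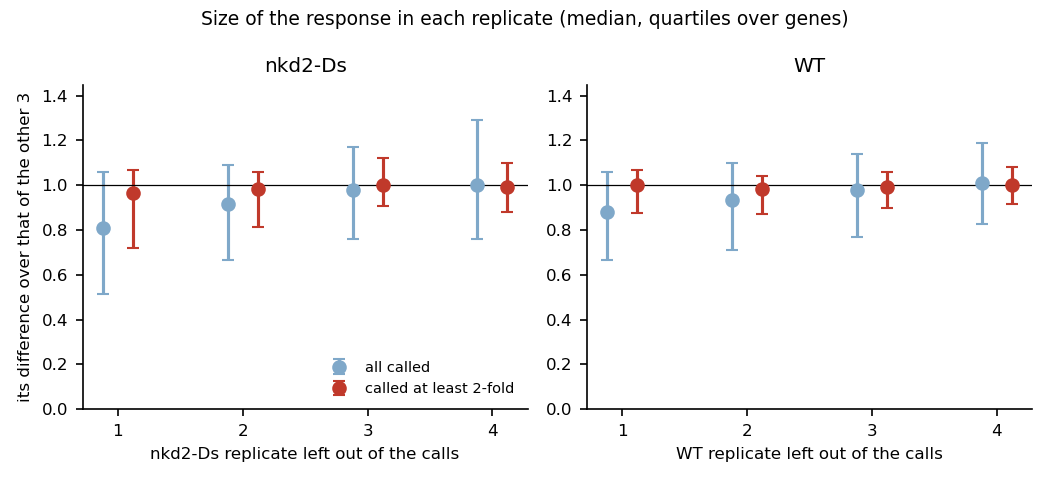
For each left-out replicate, its difference between genotypes divided by that of the other 3 replicates of its group, as the median and quartiles over genes called without it (y axis). The medians for changes of at least 2-fold lie between 0.965 and 1.00, and the lowest median over all called genes is 0.811, for nkd2-Ds replicate 1.

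Sizes were less even than directions. Of the 1010 genes called with at least 2-fold change, 1007 had all 4 nkd2-Ds libraries on the same side of the WT mean, and 629 (62.3%) had all 4 changed at least 2-fold. These genes were called with the same 4 libraries, so agreement among them is partly built in and the counts are a description. The weakest library reached a median of 0.732 of the strongest. It reached at least 0.8 in 371 genes (36.7%), called even here, and less than 0.5 in 200 genes (19.8%), called uneven. The weakest library was replicate 1 in 29.5% of the 1010 genes, replicate 2 in 24.5%, replicate 3 in 19.7% and replicate 4 in 26.3%. The strongest was replicate 1 in 31.1%, so no single library was weak throughout. The median SD of these genes was 0.21 on the log2 scale over nkd2-Ds and 0.15 over WT, against 0.135 and 0.120 over all tested genes.

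The weak library depended on the gene group. Replicate 1 was the weakest in 6 of the 7 pigment genes that rose, r1 being the exception, and in 4 of 4 aleurone and 3 of 3 oil genes. Replicate 4 was the strongest in 5, 4 and 3 of them. In the 200 uneven genes, replicates 3 and 4 both stood above replicates 1 and 2 in 88 and below them in 30. Among named genes changed at least 2-fold, the 5 with the smallest spread over nkd2-Ds were rab17, nkd2, lrk1, PPR-814a and PDE191 (GRMZM2G113181), and the 5 with the largest were hsp82, HSP90-1, hsp101, hsp22 and ERTC. The scale compresses spread near 0, so the small spread of lrk1, with 3 to 4 reads in each nkd2-Ds library, and in part that of nkd2 is set by the pseudocount. The same holds for other genes that fell to near 0 and count as even. PDE191 fell from 5.83 ± 0.806 to 2.35 ± 0.263 RPKM (limma adjusted p = 6.72e-05; SD, n = 4).

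Markers of another endosperm region moved along with this spread. The summed level of the 17 matched transfer-layer and embryo-surrounding markers was 370, 214, 201 and 78.2 RPKM in WT and 27.4, 171, 137 and 383 RPKM in nkd2-Ds. The other 7 of the 17 matched markers stayed under the level filter. Of them ae3 (GRMZM2G372553) was at 0 RPKM in every nkd2-Ds library, and near 0 in WT as well, at 0.132, 0.0603, 0 and 0.19 RPKM. The sum was lowest in nkd2-Ds replicate 1 and highest in replicate 4, like most of the pigment and oil genes that rose, while the zein share was highest in replicate 1 and lowest in replicate 4. betl2 (GRMZM2G152655), a transfer-layer gene, was at 106, 57.7, 45.6 and 21.3 RPKM in WT and at 8.89, 40.9, 30.2 and 85.7 RPKM in nkd2-Ds. In WT the marker sum was highest in replicate 1 and lowest in replicate 4, while ole17 stayed within 30.3 to 33.7 RPKM and the aleurone list within 238 to 263 RPKM summed. In nkd2-Ds the aleurone list summed to 270, 343, 416 and 462 RPKM. This order is that of its 4 members that rose, ole16, ole17, glb1 and PER1. Of the others, nkd1 (34.7, 33.3, 37.1 and 35.4 RPKM), Sal1 (35.6, 33.9, 33.5 and 30.6 RPKM) and dek1 (14.1, 17.1, 13.1 and 12.3 RPKM) did not follow it. vp1, cr4 and nkd2 stood at 2.30 RPKM or less in nkd2-Ds and add little to the sum. Fewer cells of a type and less RNA per cell cannot be told apart in whole endosperm, and the part of these markers in the spread was not tested. Without nkd2-Ds replicate 1, 5957 genes were called, and without replicate 4, 5086.

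**Figure D4:**
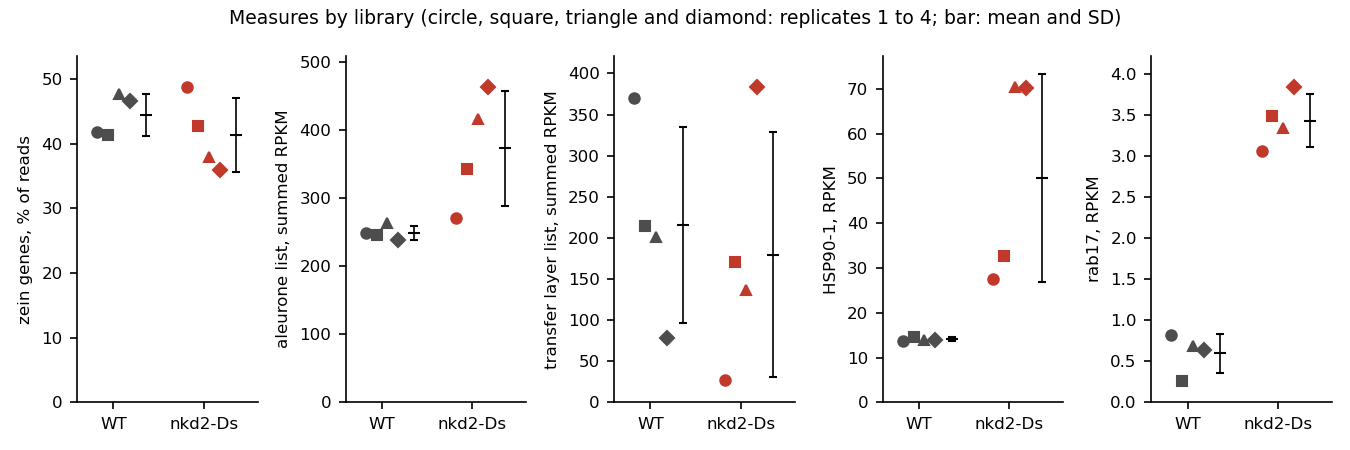
Zein share of reads, summed RPKM of the aleurone and transfer-layer lists, and RPKM of HSP90-1 and rab17 in each library, with mean and SD to the right of each group (y axes from 0). The nkd2-Ds zein share runs from 35.9% to 48.7%, while the aleurone list and the transfer-layer list are lowest in nkd2-Ds replicate 1, and rab17 lies between 3.07 and 3.84 RPKM. Within nkd2-Ds the aleurone sum follows its 4 members that rose.

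Both r1 and hyd3 lie near nkd2, in a stretch where 12 of 20 genes were called. In the order of placed genes of a RefSeq table (assembly NAM-5.0, which may not be the authors' build), 12079 tested genes could be placed, of which 22.9% were called and 1.95% changed at least 2-fold. Of the 20 within 10 places of nkd2, 12 were called (60%), 6 higher and 6 lower, and 4 changed at least 2-fold (20%). Within 25 places 15 of 50 were called, and within 50 places 29 of 100. Around nkd1, 2 of the 20 nearest genes were called. Among these 4 were the pigment regulator r1, 8 places from nkd2, and hyd3, 9 places on the other side. The other 2 were GRMZM2G017414, 1 place away, and GRMZM5G843302, 10 places away. GRMZM2G017414 went from 0.580, 0.464, 0.451 and 0.606 RPKM to 4.57, 5.61, 4.30 and 4.98 RPKM, with no overlap and little spread within either group. Like r1, it passed the level filter only through its nkd2-Ds values. GRMZM5G843302 went from 10.8, 8.54, 8.0 and 8.30 RPKM to 2.46, 2.02, 1.39 and 2.09 RPKM. The nkd1-Ds libraries were low in nkd2 as well, and in them r1 was at 21.1 ± 0.328, hyd3 at 8.63 ± 0.806, GRMZM2G017414 at 5.44 ± 0.998 and GRMZM5G843302 at 3.68 ± 0.792 RPKM (SD, n = 4). The excess in this stretch was not tested. Of 1164 overlapping windows of 50 placed genes, 5 elsewhere held more genes changed at least 2-fold than any window with nkd2 did. These 5 may share genes and need not be separate regions. Unplaced genes may lie between the placed genes around nkd2. Whether the changes in this stretch come with the nkd2 allele or with its neighbourhood cannot be told apart with 1 allele.

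**Figure D5:**
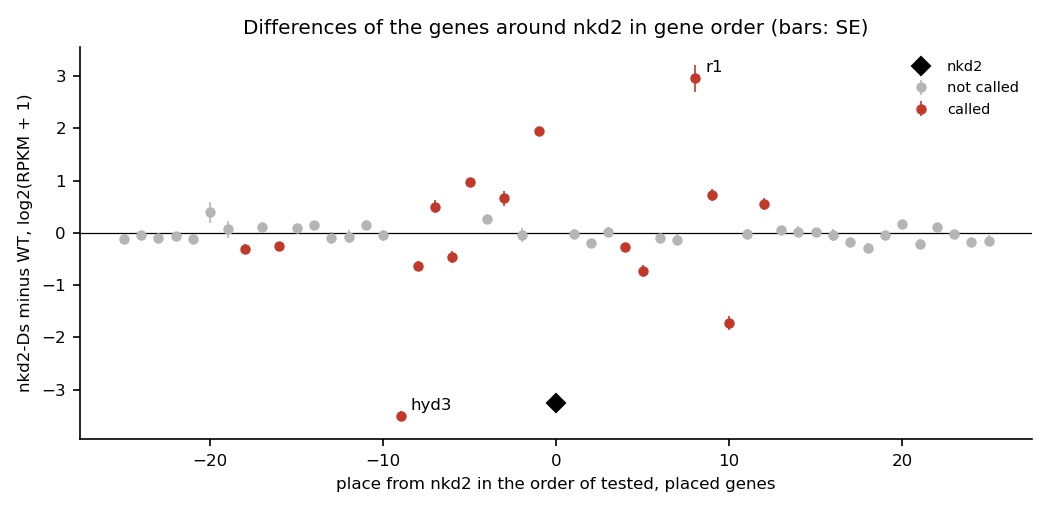
Difference in log2(RPKM + 1) between nkd2-Ds and WT (y axis, bars are SE) for tested genes by their place from nkd2 in gene order (x axis). Within 10 places on either side 12 of 20 genes are called, in red, and they lie on both sides of 0.

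Set directly against the libraries labelled nkd1-Ds, in a fit of all 12 libraries, 10306 tested genes (40.1%) differed. In those libraries nkd2 was as low as in nkd2-Ds, at 1.1 ± 0.0780 RPKM (SD, n = 4), and nkd1 was at 12.8 ± 1.08 RPKM. Of the 1010 genes changed at least 2-fold in nkd2-Ds, 461 (45.6%) differed directly, 307 of them further from WT in nkd2-Ds and 154 less far. The 1010 were chosen by their change in nkd2-Ds, which favours genes further from WT there. Those further from WT numbered 252 of the 585 that rose and 55 of the 425 that fell. Among the even genes 112 of 371 differed (30.2%), and among the uneven genes 126 of 200 (63.0%). Genes at or near 0 in nkd2-Ds count as even by the scale, which enters this contrast. Of 23 genes with 0 reads in all nkd2-Ds libraries 22 counted as even, and 1 of the 23 differed directly. Neither PDIL5-1 model differed directly, GRMZM2G073628 being at 49.3 ± 2.23 RPKM in nkd1-Ds and 55.8 ± 5.27 in nkd2-Ds, whereas hyd3 was slightly lower in nkd2-Ds (direct log2 difference -0.28, limma adjusted p = 0.0318; SD, n = 4). The pigment gene bz2 differed widely, standing at 0.291 ± 0.0988 RPKM in nkd1-Ds and 15.8 ± 5.19 in nkd2-Ds (direct log2 difference 3.65, limma adjusted p = 2.77e-08; SD, n = 4). HSP90-1 differed the other way, being at 177 ± 8.24 RPKM in nkd1-Ds (direct difference -1.92, limma adjusted p = 5.79e-05; SD, n = 4). Both comparisons with WT share the 4 WT libraries.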

How the data were processed

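RNA was measured by poly(A)-selected, stranded Illumina libraries, per the labels' protocols. The submitters' processing notes list FastQC, TopHat2 2.1.1, featureCounts and Cufflinks 2.2.1 without saying which made the deposited values. No source used here gives the genome build, the annotation or the strand setting, so overlapping or antisense genes may share reads. The deposited values are RPKM made by the authors, as judged from the values. Whole reads were recovered from the steps of these values for 34307 of 34307 genes above 0 (tolerance 0.02 reads), with 41 genes at 0 throughout. They gave totals of 35.3 to 48.0 megareads in the WT and nkd2-Ds libraries. The size factors in the deposited values were 27.3 to 31.1 megareads there, so the authors' scaling was not by these totals. How the authors made the factors is not described.

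Differences were tested with limma 3.58.1 (R 4.3.3, mean-variance trend) on log2(RPKM + 1) for the 4 WT and 4 nkd2-Ds libraries, with genotype as the only factor. Genes under a mean of 1 RPKM in both groups were left out. Tests were two-sided, and p-values were adjusted by Benjamini-Hochberg over 25726 genes. Alternatives were another pseudocount (0.1), filter (none, or 5 RPKM), scaling (quantile, total reads), limma voom on recovered reads, all 12 libraries, a replicate block, and each library left out. Apart from limma voom on recovered reads, no count model was run, as the deposited unit is RPKM. A promoter motif count had been planned and was not run, since no promoter sequences were used here.

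Gene names came from a RefSeq table of assembly NAM-5.0, which matched 15236 of the 34348 gene IDs and 12097 of the tested ones. A name that is not a clone name was found for 1686 tested genes. 8 genes matched to a list only by an ambiguous alias were left out. Members and lists were chosen with earlier results of these data known. Genes named are nkd1 and nkd2, list members, the 12 largest rises and falls among called named genes without overlap, the 5 most and 5 least even, and the 10 highest in WT. Unnamed genes, BZ1, whp1 and the genes beside nkd2 were chosen after their values were seen.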

Additional observations from a re-analysis of the deposited data

Results flagged for a closer look

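Of 198 sets of 4 libraries checked, 9 had 1 library further from the other 3 than Dixon's 95% critical value allows, and chance flags about 1 in 20. In nkd2-Ds replicate 1, zp27 stood at 39929 RPKM against 26925 to 28592 RPKM in the other 3, and zp15 at 37264 RPKM against 24351 to 25456 RPKM. In nkd2-Ds replicate 4, eno1 stood at 831 RPKM against 642 to 665 RPKM and pcna1 at 2.90 RPKM against 1.97 to 2.09 RPKM. Among WT libraries, c2 was low in replicate 4 at 0.0511 RPKM (others 0.138 to 0.146 RPKM), y1 high in replicate 4 at 14.5 RPKM (11.5 to 11.9 RPKM) and adh2 high in replicate 2 at 5.82 RPKM (4.71 to 4.88 RPKM). The chitinase gene GRMZM2G051943 was high in WT replicate 1 at 10.1 RPKM (6.98 to 7.41 RPKM), and dek1 low in WT replicate 3 at 11.4 RPKM (12.2 to 12.3 RPKM).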

How the results depend on the processing

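Scaling by total reads called 3663 genes, 1118 of them lower, and gave nkd2-Ds replicate 1 a response of 0.385 of the other 3. A filter of 5 RPKM left 14163 genes, 1726 called higher and 590 called at least 2-fold. The 2-fold count was 1700 with a pseudocount of 0.1, which widens the log2 differences of low genes by construction, and 1794 with limma voom. The cause of the other shifts was not tested. Leaving out 1 library gave 4584 to 5957 called genes, 73.5% to 86.7% of the 6076 being called again. The difference in zein share stayed between -5.52 and -1.26 percentage points without 1 library each, with p from 0.171 to 0.686. Deviations from the group means did not rise and fall together by replicate number (same-number correlations -0.279 to 0.0358). The third principal component nevertheless set replicates 1 and 2 apart from 3 and 4 in both groups. Whether libraries of the same number share a batch was not tested. A replicate block called 4707 genes. A term for replicates 1 and 2 against 3 and 4, chosen after seeing the data, called 6133. Of 78 called genes whose values are given, 52 stayed called in every alternative that tested them and 26 lost the call in at least 1 of 17. The replicate block ended 17 of these calls, with limma adjusted p from 0.0504 (rbr3) to 0.217 (zp27). The others were c1, pac1 (GRMZM2G058432), dzs18, z1A1_8, sus1, ae1, o2, hsp22, hsp70-4, HRGP, eno2, cdc2, RBR1, NRP1 and sut2. None of these 78 reversed direction. The share called was 16.3% under 2 RPKM; the part of depth in this was not tested.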

Other observations

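29 genes changed at least 2-fold on the log2 scale without being called, and in 15 of them nkd2-Ds replicate 4 lay farthest from the other nkd2-Ds libraries. The 3 named ones are all named as basal layer antifungal proteins of the transfer region: bap1-b (GRMZM2G008403) was at 1.52, 12.5, 13.4 and 27.6 RPKM in nkd2-Ds and 0.751 to 4.79 RPKM in WT, bap-1a (GRMZM2G008271) at 0.215, 1.37, 2.14 and 3.05 RPKM against 1.26 to 8.10 RPKM, and bap-3b (GRMZM2G133370) at 0.463, 1.11, 1.31 and 5.69 RPKM against 1.87 to 7.15 RPKM. Their log2 differences were 1.61, -1.12 and -1.09, so the last 2 lay on the lower side. In all 3, nkd2-Ds replicate 1 was the lowest and replicate 4 the highest, as in the summed markers of that region. Of 1164 overlapping windows of 50 placed genes the median held 1 gene changed at least 2-fold. The windows with nkd2 held at most 6, and 5 windows, which may share genes, held more, up to 9.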
